A study of Danio rerio with 28 samples.

Results

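Collagens and the enzymes and chaperones that build them were followed in guts of wild type zebrafish larvae and of larvae lacking il22, which encodes the cytokine interleukin-22. A gene was included if its symbol began with col and a digit, with p4ha, plod or lox, or was serpinh1a or serpinh1b, and if it averaged at least 0.5 CPM (counts per 1e+06 counts) over the 20 libraries of the second of 2 experiments. Of 45 genes matching by name, 29 passed that limit, among 15419 rows of the second experiment's table. They were 16 collagen chains and 13 processing genes. The lowest 2 inside the limit were col27a1b at 0.943 CPM and col28a2a at 0.784 CPM, and the highest 2 outside it were col28a1a at 0.457 CPM and col10a1a at 0.452 CPM. All 29 also had a row in the table of the first experiment, which had 16134 rows.

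RNA was sequenced from dissected guts at 7 days post-fertilization, and every library was a pool of 10 to 15 guts. Experiment 1 held wild type and il22 knockout (il22-/-) guts whose rearing the labels do not state. Experiment 2 held wild type and knockout guts from conventionally reared larvae, wild type and knockout guts from germ-free (axenic) larvae, and knockout guts from co-housed larvae. Each of the 7 groups had 4 libraries, and the labels give neither the knockout allele nor how many lines were used.

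Collagen chains assemble into triple helices in the endoplasmic reticulum, where prolyl 4-hydroxylases and lysyl hydroxylases modify them and the chaperone encoded by serpinh1 genes holds the helix for export. Outside the cell, fibrillar chains form fibres, type IV and multiplexin collagens build or decorate basement membranes, and lysyl oxidases cross-link the product. In the gut wall these genes are known mainly from mesenchymal cells, smooth muscle and endothelium, with basement membrane chains also made by epithelium.

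Library totals, in units of 1e+06 counts, ranged from 30.2 to 38.0 in experiment 1 and from 22.3 to 31.0 in experiment 2. In experiment 1 the targeted gene il22 averaged 7.49 ± 4.35 CPM (SD, n = 4) in wild type libraries and 0.906 ± 0.784 CPM in knockout libraries (exact permutation test, two-sided, p = 0.0286). In experiment 2 il22 was near 0 in all groups, at 0.360 CPM in conventional wild type and 0.177 CPM in the conventional knockout (exact permutation p = 0.4), so it did not check those labels. Skeletal muscle markers summed to 1355 CPM in conventional wild type 1, 869 CPM in germ-free wild type 2 and 520 CPM in co-housed knockout 2, against 92.2 to 213 CPM in the other 17 libraries of experiment 2. Of 20 muscle markers measured there, mylpfa, ckma, pvalb2 and smyhc1 averaged near 0, so these sums rest on the other markers. Markers of cartilage and notochord summed to 3.32 to 8.73 CPM over all libraries, and markers of bone to 0.952 to 3.65 CPM, with bglap, a defining bone gene, near 0. Of 9 cartilage and notochord markers measured, ucmab, epyc, tbxta and mia were near 0 in both experiments, and hapln1a and cnmd in experiment 1. Intestinal epithelium markers summed to between 2.11e+04 and 3.36e+04 CPM in every library, with the lowest group means of experiment 2 in the germ-free groups.

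On a per-length scale (TPM, transcripts per 1e+06), the most abundant of the genes in experiment 2 was col18a1a at a mean of 31.9 TPM, followed by plod3 at 24.5 TPM, col1a1b at 21.4 TPM, col4a5 at 21.1 TPM and col5a2a at 18 TPM. In experiment 1 plod3 led at 30.0 TPM, ahead of col4a5 at 28.9 TPM, col18a1a at 26.4 TPM and col1a1b at 25.6 TPM. The scarcest in experiment 2 were col28a2a, col27a1a, col27a1b and col5a3b, each under 0.5 TPM on average. The 3 genes that were well read in experiment 2 but at or near 0 in experiment 1 were col11a2 at 0 counts, serpinh1b at 3 counts and plod2 at 12 counts over 8 libraries. Each of these symbols had 2 transcript rows there, and of 488 such symbols that reached 0.5 CPM in experiment 2, 47.3% were under 0.05 CPM in experiment 1, against 0.171% of 9945 symbols with 1 row. Their level in experiment 1 was therefore not read, and 26 of the 29 genes were tested there. The rows of col1a1a, col2a1a, col8a1a and p4ha1a held no more than 2 counts in either experiment and were not read either. Genes of type VI and type XII collagen, and type IV chains other than col4a5, had no row in experiment 2 under a name matching the rule. They are therefore absent from the 29 genes and from this ranking.

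Differences were tested with edgeR's quasi-likelihood test, and a gene was called at an adjusted p under 0.05 over all genes tested. In experiment 1, 7 of the 26 genes were called in the knockout against wild type, 6 higher and 1 lower, where 33.1% of all 10710 genes tested were called (16.1% higher and 17% lower). In conventional larvae 7 of 29 were called, 5 higher and 2 lower, against 36.2% of all 11254 genes (17% higher and 19.1% lower). In germ-free larvae 6 of 29 were called, 4 higher and 2 lower, against 26.8% of all genes (13.5% higher and 13.3% lower). The shares of called members, 26.9%, 24.1% and 20.7%, were thus each below the share of all genes called. The median log2 fold change of the members was 0.12, -0.08 and 0.25 in the 3 knockout comparisons, while the median over all genes was -0.01, -0.02 and 0.00. Of the 26 members tested in all 3, col18a1a, col4a5 and plod1a were higher in each, and no member was lower in all 3. The share of all genes called higher in all 3 was not counted.

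**Figure D1:**
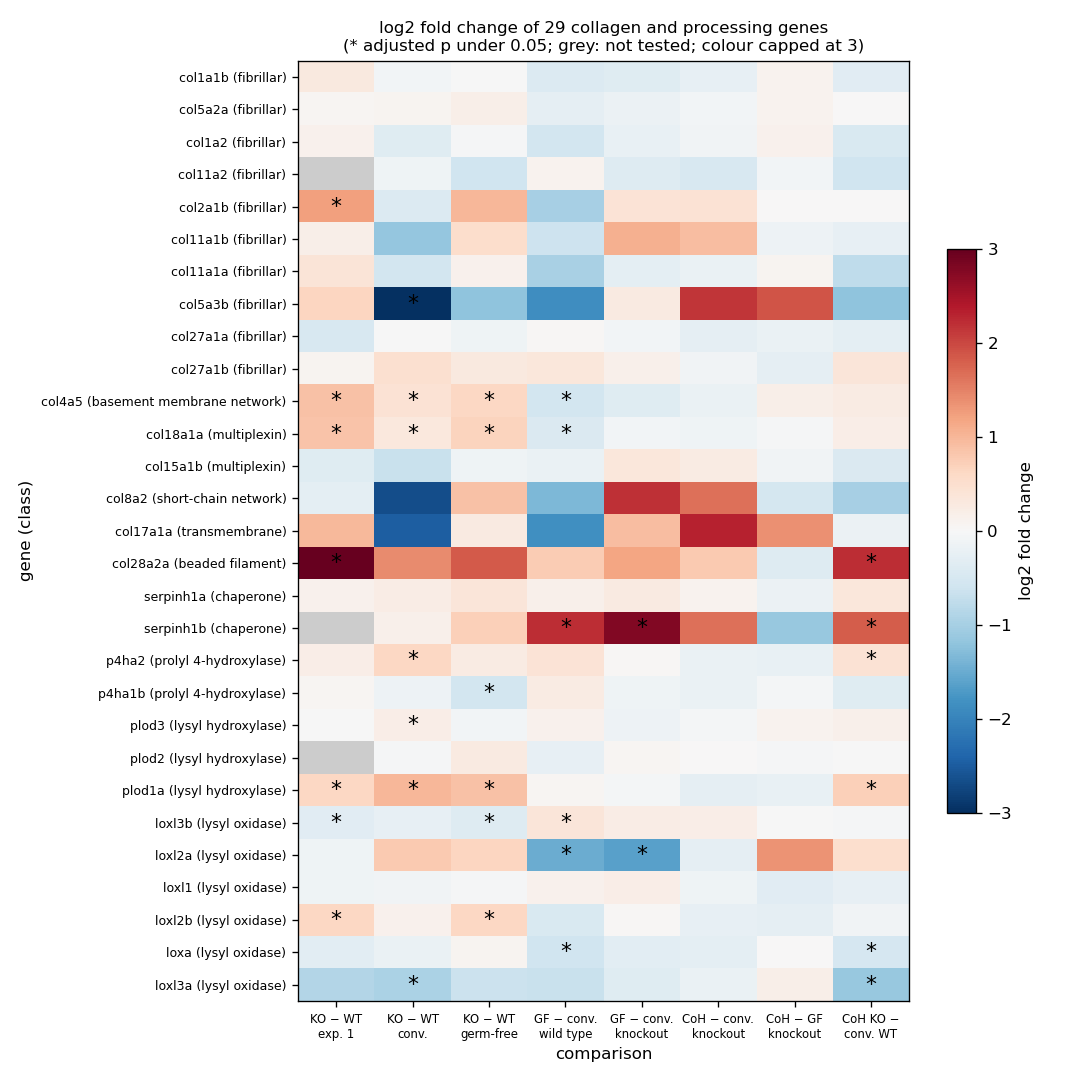
Colour gives the log2 fold change of each of the 29 genes (rows, with their class) in 8 comparisons (columns), and stars mark an adjusted p under 0.05. The rows of col4a5, col18a1a and plod1a are starred in all 3 knockout comparisons on the left, and the comparisons of co-housed with other knockout larvae hold no star.

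Among basement membrane components, col18a1a and col4a5 rose in the knockout in both experiments. The gene col18a1a encodes the multiplexin whose cleaved end is endostatin. In experiment 1 it stood at 65.5, 60.9, 61.7 and 54.5 CPM in wild type and at 126, 116, 106 and 91.6 CPM in the knockout. All knockout libraries lay above all wild type libraries, and the log2 fold change was 0.86 ± 0.10 (SE, adjusted p = 0.000291). In conventional larvae it stood at 106, 85.3, 109 and 81 CPM in wild type and 106, 115, 121 and 131 CPM in the knockout. The groups overlapped, since wild type library 3 lay above the lowest knockout library. Wild type library 1 came just below it, at 105.6 against 106 CPM. The log2 fold change was 0.31 ± 0.10 (adjusted p = 0.0158). Without conventional knockout replicate 4 that adjusted p was 0.0663, and with these 2 groups fitted alone it was 0.0543. In germ-free larvae it stood at 67.6, 67.2, 78 and 67.6 CPM in wild type and 118, 113, 117 and 99.0 CPM in the knockout. These groups were far apart, and the log2 fold change was 0.67 ± 0.10 (adjusted p = 3.2e-05).

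In wild type, col18a1a was lower in germ-free than in conventional larvae, with a log2 fold change of -0.44 ± 0.10 (adjusted p = 0.0034), with no overlap between the groups. In the knockout the same contrast gave -0.08 ± 0.10 (adjusted p = 0.556). The difference between these 2 contrasts was 0.36 ± 0.14 and did not pass the test (adjusted p = 0.209, unadjusted p = 0.0155). The knockout effect was larger in experiment 1 than in conventional larvae of experiment 2 by 0.53 ± 0.16 on the log2 scale (adjusted p = 0.0463). It was the only call among 26 genes in that contrast of effects, where 10.8% of all genes were called (5.06% with a larger value in experiment 1). The call was lost in 15 of 24 alternatives, among them the fits without replicates 1, 2 or 3 of either knockout group, replicates 2, 3 or 4 of wild type in experiment 1 or replicates 1 or 3 of conventional wild type, with adjusted p from 0.0534 to 0.0998.

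The gene col4a5 encodes a chain of type IV collagen, the network of basement membranes. In experiment 1 it stood at 97.4, 94.0, 60.4 and 56.2 CPM in wild type and at 165, 141, 141 and 115 CPM in the knockout. The groups did not overlap, although wild type fell into a higher and a lower pair, and the log2 fold change was 0.87 ± 0.20 (adjusted p = 0.00928). In conventional larvae wild type held 92.9, 60.4, 87 and 56.0 CPM and the knockout 108, 81.7, 86.8 and 124 CPM. Those groups overlapped and the call was marginal, at 0.43 ± 0.17 (adjusted p = 0.048). It was lost without conventional knockout replicate 1 (adjusted p = 0.105) or 4 (0.18), without conventional wild type replicate 2 (0.121) or 4 (0.108), with no count filter (0.055) and with the 2 groups fitted alone (0.112). In germ-free larvae wild type held 38.6, 60.0, 51.8 and 50.3 CPM and the knockout 70.3, 79.1, 68.8 and 91.8 CPM. Every knockout library was above every wild type library (0.63 ± 0.17, adjusted p = 0.00853). Germ-free wild type was lower than conventional wild type by -0.56 ± 0.17 (adjusted p = 0.0201). That call was lost without germ-free wild type replicate 1 (adjusted p = 0.0694), without conventional wild type replicate 1 (0.076) or 3 (0.0674), and without the 3 libraries rich in muscle transcripts (0.0557).

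Summed mesenchyme markers were also higher in knockout libraries. They ranged over 96.9 to 132 CPM in wild type and 132 to 168 CPM in the knockout of experiment 1, over 84.9 to 109 CPM and 120.3 to 148 CPM in conventional larvae, and over 83.4 to 112 CPM and 128 to 148 CPM in germ-free larvae. The 2 genotypes did not overlap in any of the 3 settings. In experiment 1 the gap was narrow, with the highest wild type library at 131.7 CPM and the lowest knockout library at 132.4 CPM. Of the 17 markers on that list, 2 of 12 tested rose in experiment 1 (16.7%, near the 16.1% of all genes called higher there), 6 of 13 in conventional (46.2%, against 17% of all genes) and 5 of 13 in germ-free larvae (38.5%, against 13.5%), and none fell. Those that rose in conventional larvae were pdgfra, pdgfrb, tcf21, foxf1, foxf2a and cxcl12b, while nkx2.3 and cygb2 were near 0 in both experiments. Of 12 endothelial markers tested, 0 were called in experiment 1 and 4 (33.3%) rose in conventional and in germ-free larvae, among them kdrl, tie1 and tek. Their summed levels overlapped between genotypes in all 3 settings, with 221 to 344 CPM in wild type and 297 to 353 CPM in the knockout of experiment 1. Of 9 smooth muscle markers tested in experiment 1, 1 rose (11.1%) and 0 fell. Of 10 tested in experiment 2, 1 rose in conventional and 1 in germ-free larvae (10% each), and 0 fell. Summed smooth muscle levels also overlapped between genotypes in all 3 settings. Summed skin markers lay at 765 to 1062 CPM in wild type and 1578 to 1992 CPM in the knockout of experiment 1, without overlap, although 2 of 11 tested rose and 2 fell, and the genotypes overlapped in both rearing conditions of experiment 2. The part of these markers in the collagen results was not tested, and in bulk tissue fewer or more cells of a type and less or more RNA per cell cannot be told apart.

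**Figure D2:**
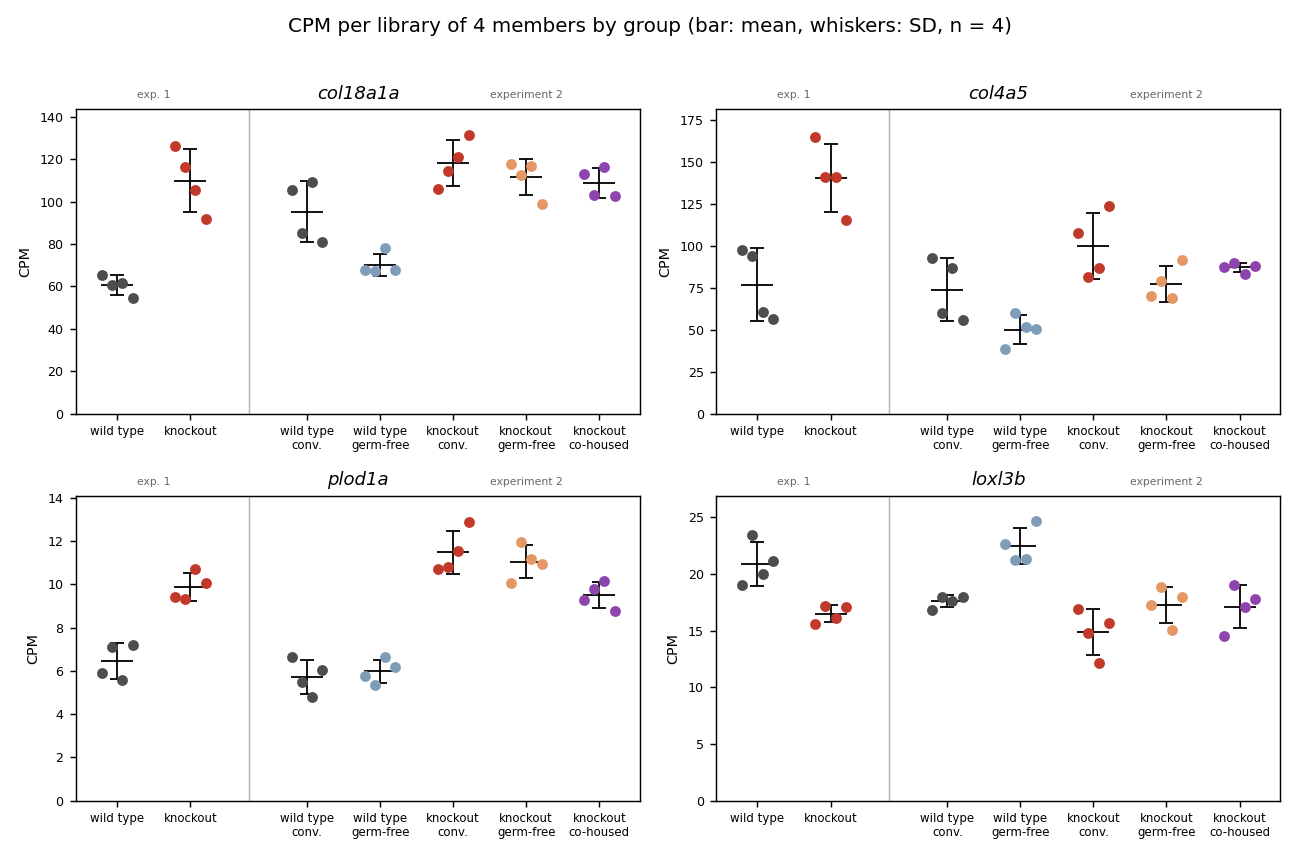
CPM (vertical axis) of col18a1a, col4a5, plod1a and loxl3b in each library (points), by group, with mean and SD (n = 4). Knockout libraries of plod1a lie between 8.77 and 12.9 CPM and all wild type libraries between 4.80 and 7.20 CPM, while loxl3b has its highest group mean, 22.5 CPM, in germ-free wild type.

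The second multiplexin, col15a1b, was called nowhere. It stood at 2.11 to 5.49 CPM in wild type and 2.55 to 3.54 CPM in the knockout of experiment 1 (-0.35 ± 0.31, adjusted p = 0.41).

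The abundant fibrillar chains col1a1b, col1a2 and col5a2a were not called in the main fit of any comparison. The gene col1a1b encodes a chain of type I collagen. In experiment 1 it stood at 118, 114, 76.3 and 78.2 CPM in wild type and 144, 117, 123 and 90.6 CPM in the knockout, and in conventional larvae at 148, 79.8, 110.5 and 83.9 CPM and 103, 97.4, 86.8 and 111 CPM. The genotypes overlapped widely in both settings. The log2 fold change was 0.30 (95% interval -0.07 to 0.66) in experiment 1 and -0.08 (-0.39 to 0.23) in conventional larvae. In germ-free larvae col1a1b ranged over 62.6 to 90.8 CPM in wild type and 70.1 to 88 CPM in the knockout, a log2 fold change of -0.02 (-0.33 to 0.29). With its partner chain col1a2 the interval was -0.22 to 0.46 in experiment 1, -0.77 to 0.04 in conventional and -0.45 to 0.36 in germ-free larvae.

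Germ-free means of both type I chains were lower in wild type, by -0.42 ± 0.16 for col1a1b (adjusted p = 0.0598) and -0.56 ± 0.21 for col1a2 (adjusted p = 0.0566), short of the threshold. Both passed it without conventional wild type replicate 4 (0.0281 and 0.0407), without replicate 2 (0.0326 and 0.0222) and with DESeq2 (0.0335 and 0.0262). In the knockout, germ-free rearing gave -0.36 ± 0.16 for col1a1b (adjusted p = 0.102) and -0.23 ± 0.21 for col1a2 (adjusted p = 0.434). There col1a1b was called with the 2 groups fitted alone (0.00968) and without the 3 libraries rich in muscle transcripts (0.0361). Without conventional wild type 2, both chains were called lower in the co-housed knockout than in conventional wild type (0.0458 for col1a1b and 0.0265 for col1a2). The ratio of col1a1b to col1a2, as TPM, averaged 1.90 and 2.14 in wild type and knockout libraries of experiment 1, and 1.69 to 1.99 over the 5 groups of experiment 2. Its lowest library value, 1.43, was in conventional wild type 1, the library with the most muscle transcripts. The gene col5a2a, a chain of type V collagen that sets fibril diameter, ranged over 68.2 to 100.0 CPM in wild type and 81.9 to 97.5 CPM in the knockout of experiment 1. Its 3 knockout log2 fold changes were 0.06, 0.07 and 0.17, none past the test. Without conventional wild type 4, col5a2a was called lower in germ-free than in conventional wild type (adjusted p = 0.0149).

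**Figure D3:**
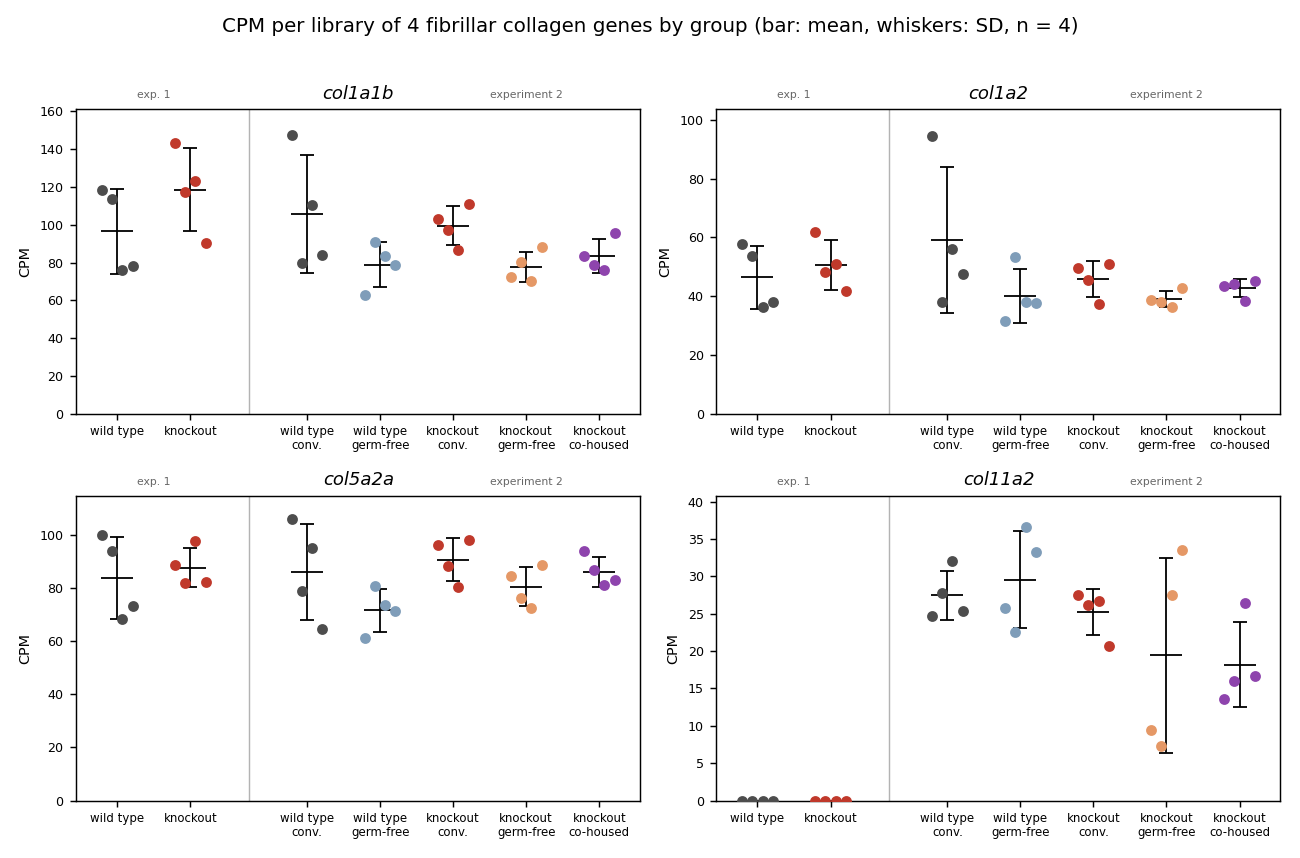
CPM (vertical axis) of col1a1b, col1a2, col5a2a and col11a2 in each library (points), by group, with mean and SD (n = 4). Groups overlap for all 4 genes, col11a2 is at 0 in experiment 1, and its germ-free knockout libraries split into 9.42 and 7.26 CPM against 27.6 and 33.5 CPM.

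The chains of cartilage-type collagens were low or uneven. The gene col2a1b, a type II chain, rose in the knockout of experiment 1, from 10.1, 6.66, 5.89 and 4.31 CPM in wild type to 17.4, 15.5, 14.0 and 16.8 CPM. The groups did not overlap and the log2 fold change was 1.24 ± 0.22 (adjusted p = 0.00279). The summed skin markers and, narrowly, the summed mesenchyme markers given above separated the same libraries, and their part was not tested. In conventional larvae wild type held 31.3, 4.07, 4.53 and 12.0 CPM and the knockout 10.2, 9.39, 9.88 and 9.64 CPM, so the even knockout libraries lay inside the spread of wild type (-0.41 ± 0.50, adjusted p = 0.543). In germ-free larvae wild type held 2.55, 10.2, 7.02 and 6.23 CPM and the knockout 12.5, 12.0, 15.5 and 12.3 CPM. Every knockout library was higher, yet the fit gave 1.00 ± 0.51 (adjusted p = 0.162); without the 3 libraries rich in muscle transcripts it was 1.3 and called (adjusted p = 0.0114). The type XI chain col11a2 ranged over 20.7 to 32.0 CPM in the 8 conventional libraries, and in the germ-free knockout it stood at 9.42, 7.26, 27.6 and 33.5 CPM. That group held both the lowest library and one of the highest, and col11a2 was called in no comparison. In the main fits no call was made for col11a1a, col11a1b, col27a1a or col27a1b, though some alternatives made calls. DESeq2 called col11a1b lower in the conventional knockout (adjusted p = 0.034) and col11a1a lower in germ-free wild type (0.0383). With germ-free rearing in the knockout, col11a1b was higher with the 2 groups fitted alone (0.00106) and without the muscle-rich libraries (0.013). A filter of 1 CPM called col27a1a lower in the knockout of experiment 1 (0.0444).

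The high values of 3 other chains lay in few libraries. The gene col17a1a encodes the transmembrane collagen of hemidesmosomes in basal epidermis. It stood at 27.6, 0.171, 0.0756 and 8.57 CPM in conventional wild type and at 14.4, 6.99, 0.682 and 10.4 CPM in co-housed knockout libraries. Libraries of one group thus differed far more than the groups did, and no comparison called it. The short-chain collagen gene col8a2 and the type V gene col5a3b were also highest in conventional wild type 1, at 10.6 and 14.0 CPM. In conventional larvae col5a3b stood at 14.0, 0.307, 0.264 and 5.38 CPM in wild type and 0.396, 0.885, 0.293 and 0.363 CPM in the knockout. The fit called it lower, at -3.36 ± 1.21 (adjusted p = 0.0385). Yet wild type library 2 lay inside the knockout range and wild type library 3 below it. Without conventional wild type 1 the value was -2.03 (adjusted p = 0.193). The call was lost in 11 of 16 alternatives, including the fits without wild type 4 or any 1 knockout library (adjusted p from 0.0552 to 0.0877). In conventional wild type 1 the summed skin markers were 2678 CPM and in wild type 4 they were 1602 CPM, against 1122 and 1225 CPM in wild type 2 and 3. Libraries of other groups did not all keep that order. Germ-free knockout 1 held 1906 CPM of skin markers with 0.272 CPM of col17a1a and 0.0778 CPM of col5a3b. Co-housed knockout 1 held 1669 CPM of skin markers with 14.4 and 4.90 CPM of these genes. Of the 16 skin markers, krt5, cldni and cxl34b.11 were near 0 in both experiments. Of 12 tested in the conventional knockout, 1 rose and 1 fell (8.33% each, against 17% and 19.1% of all genes). Their median log2 fold change there was -1.81, a direction that the summed levels do not show. The part of skin markers in these chains was not tested.

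**Figure D4:**
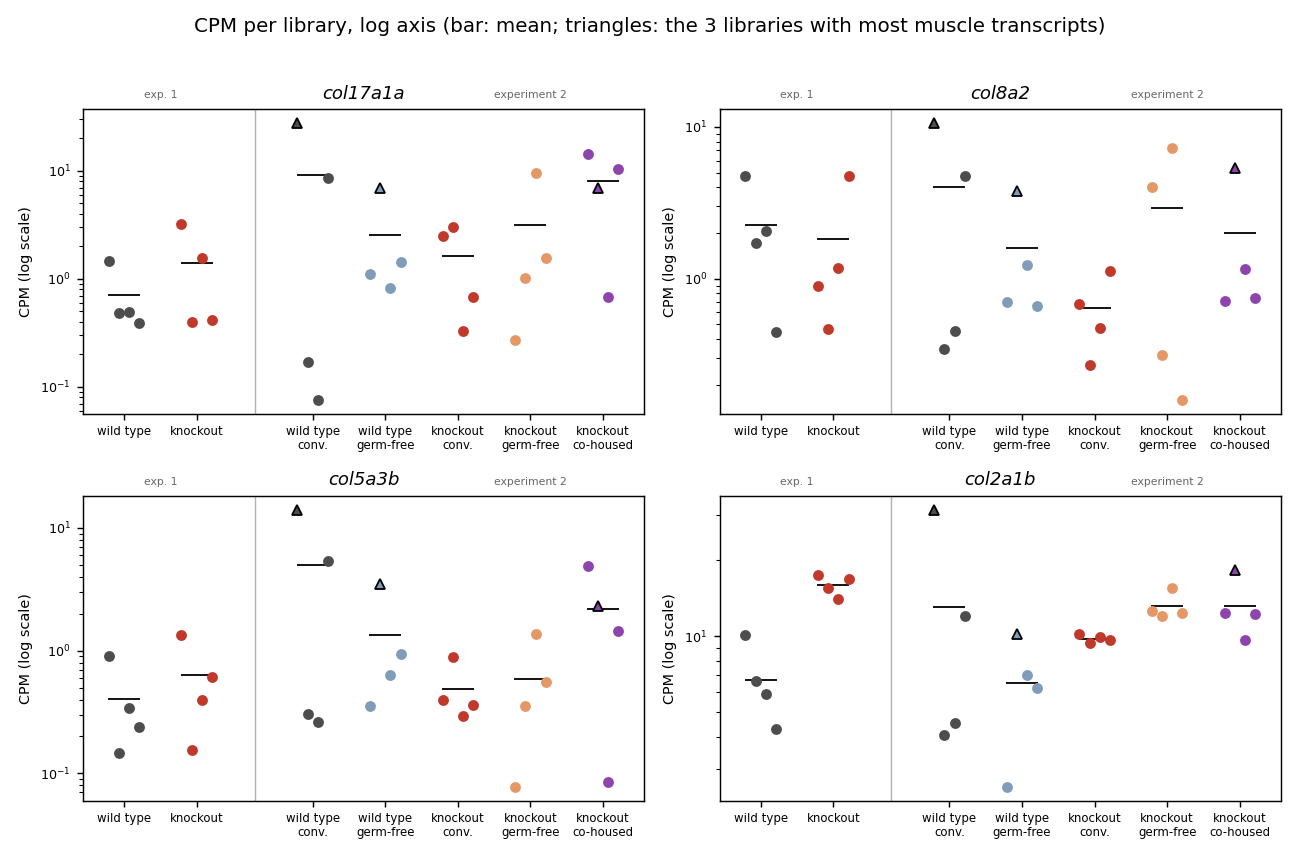
CPM on a log axis of col17a1a, col8a2, col5a3b and col2a1b in each library (points), by group, with bars at the means. Triangles are the 3 libraries with the most muscle transcripts, and conventional wild type 1 is the highest of all libraries for each of the 4 genes, at 27.6, 10.6, 14.0 and 31.3 CPM.

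The scarce beaded filament chain col28a2a gave the largest fold change among the called members. In experiment 1 it stood at 0.170, 0.0486, 0.0310 and 0.0595 CPM in wild type and at 2.25, 1.27, 1.35 and 1.13 CPM in the knockout. The groups were far apart, with a log2 fold change of 4.21 ± 0.45 (adjusted p = 0.000152), at levels of at most 0.8 TPM. The summed skin markers separated these libraries too, and the summed mesenchyme markers did so narrowly. The part of these markers was not tested. In experiment 2 its knockout values of 1.43 ± 0.79 in conventional and 1.85 ± 0.73 in germ-free larvae were not called in the main fit (adjusted p = 0.165 and 0.0686). The germ-free value was called higher by DESeq2 (adjusted p = 0.0479), on log2 TPM (0.00529) and without germ-free wild type 4 (3.07, 0.00899). The conventional value was called higher without conventional wild type 1 (2.41, adjusted p = 0.047). The co-housed knockout was higher than conventional wild type by 2.21 ± 0.77 (adjusted p = 0.0345), and that call was lost without co-housed knockout 1 (1.79, adjusted p = 0.109) or conventional wild type 2, 3 or 4 (adjusted p from 0.0545 to 0.0915).

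Of the procollagen chaperones, serpinh1b rose with germ-free rearing in both genotypes. In wild type it went from 0.519, 0.854, 1.97 and 5.49 CPM in conventional to 8.61, 9.46, 12.3 and 10.4 CPM in germ-free libraries. Even conventional wild type 4, which stood above its group, was below every germ-free library, and the log2 fold change was 2.21 ± 0.53 (adjusted p = 0.00755; 0.0567 with the 2 groups fitted alone). In the knockout it went from 3.31, 2.31, 2.08 and 2.02 CPM to 17.5, 17.3, 15.4 and 17.2 CPM. Both groups were tight and far apart (2.79 ± 0.54, adjusted p = 0.00127). The genotype difference was 0.72 ± 0.49 in germ-free larvae and was not called (adjusted p = 0.313), although all 4 knockout libraries were above all 4 wild type libraries; with the 2 groups fitted alone it was called (adjusted p = 0.000913). The rearing effect did not differ between genotypes beyond its error (0.58 ± 0.74, adjusted p = 0.749).

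Co-housed knockout larvae held 3.95, 3.55, 9.51 and 13.8 CPM of serpinh1b, all above the conventional knockout and all below the germ-free knockout. Neither difference was called, at 1.66 ± 0.53 against conventional (adjusted p = 0.103) and -1.13 ± 0.50 against germ-free (adjusted p = 0.17). Against conventional wild type the co-housed knockout was higher by 1.81 ± 0.53 (adjusted p = 0.0155), and this was lost without co-housed knockout 4 (adjusted p = 0.0676) or with these 2 groups fitted alone (0.124). The paralog serpinh1a was called nowhere in the main fits and ranged over 5.06 to 11.9 CPM in experiment 2. Without conventional wild type 1 it was called higher in the conventional knockout (adjusted p = 0.0481) and the co-housed knockout (0.0196), each against conventional wild type. Without the 3 libraries rich in muscle transcripts both were called as well (0.0487 and 0.0249). As a share of the summed TPM of both genes, serpinh1b averaged 31.3% in conventional wild type and 33.5% in the conventional knockout, 69.0% and 74.3% in the germ-free groups, and 56.0% in the co-housed knockout.

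**Figure D5:**
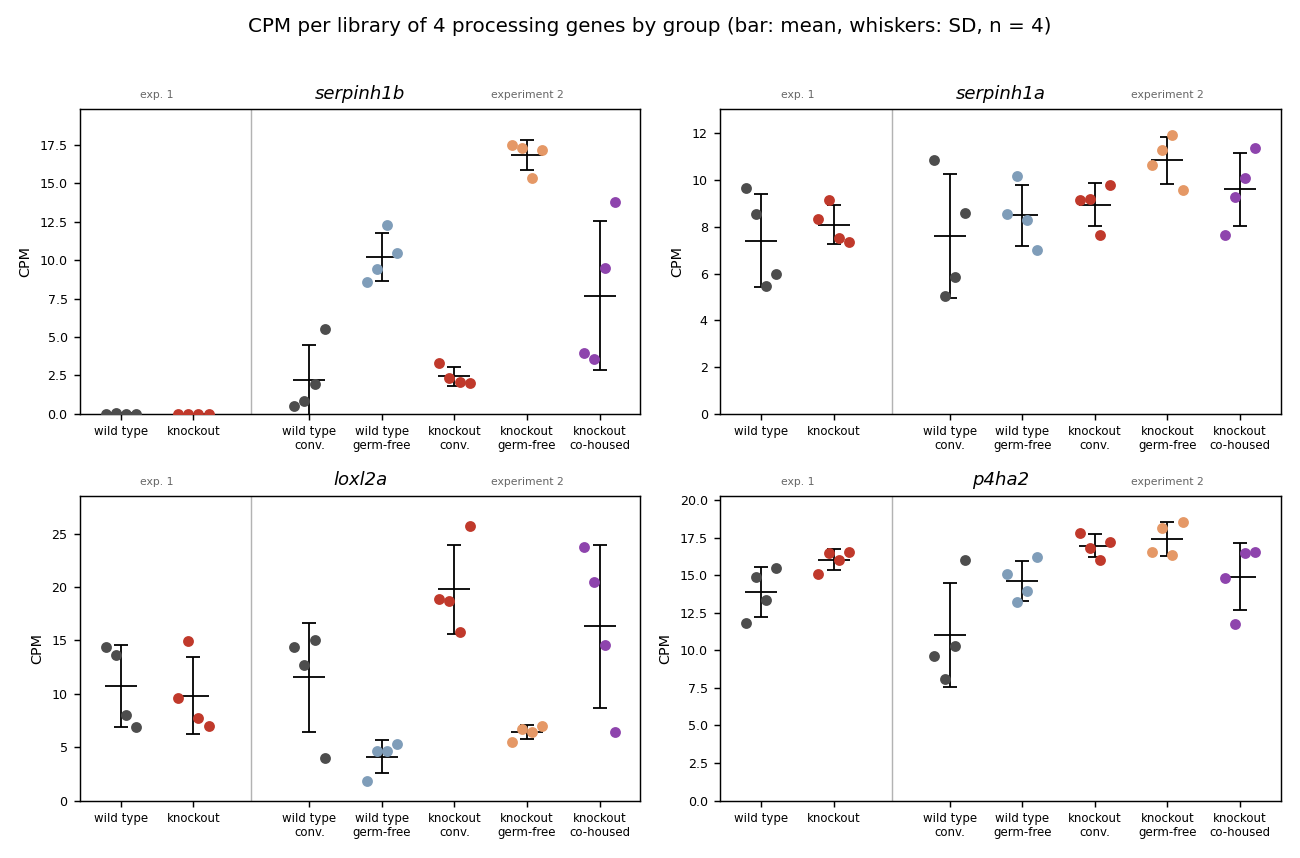
CPM (vertical axis) of serpinh1b, serpinh1a, loxl2a and p4ha2 in each library (points), by group, with mean and SD (n = 4). The germ-free groups are high for serpinh1b (8.61 to 17.5 CPM) and low for loxl2a (1.84 to 7.03 CPM). For both genes co-housed libraries spread over the range of the other knockout groups of experiment 2. For p4ha2, co-housed knockout 1 and 2, at 14.8 and 11.8 CPM, lie below all libraries of those groups.

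The lysyl hydroxylase gene plod1a rose in all 3 knockout comparisons. In experiment 1 it stood at 5.89, 7.12, 5.58 and 7.20 CPM in wild type and at 9.42, 9.30, 10.7 and 10.04 CPM in the knockout, a log2 fold change of 0.61 ± 0.11 (adjusted p = 0.00244). In conventional larvae it stood at 6.62, 5.47, 4.80 and 6.05 CPM and at 10.7, 10.8, 11.6 and 12.9 CPM, a change of 1.00 ± 0.10 (adjusted p = 5.6e-07). In germ-free larvae it stood at 5.75, 5.37, 6.63 and 6.16 CPM and at 10.1, 12.0, 11.2 and 11 CPM, a change of 0.88 ± 0.10 (adjusted p = 2.9e-06). Knockout libraries were higher without overlap in all 3 settings, and the call held in every alternative run. Germ-free against conventional rearing gave 0.06 (95% interval -0.14 to 0.26) in wild type and -0.06 (-0.25 to 0.14) in the knockout.

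In co-housed knockout guts plod1a stood at 9.28, 9.77, 10.2 and 8.77 CPM, below every conventional knockout library and above every wild type library. Its change was 0.73 ± 0.10 against conventional wild type (adjusted p = 2.7e-05) and -0.27 ± 0.10 against the conventional knockout, which was not called (adjusted p = 0.156). Within lysyl hydroxylase TPM its mean share in wild type was 6.78% under conventional and 7.14% under germ-free rearing. In the knockout that share was 11.9% and 12.1% under the same conditions and 10.2% with co-housing.

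Of the other lysyl hydroxylases, plod3 was called in conventional larvae. The gene plod3, whose product also glycosylates collagen lysines, stood at 41.4, 41.5, 42.8 and 47.4 CPM in conventional wild type and 50.1, 52.9, 48.0 and 46.7 CPM in the knockout. The groups overlapped at wild type 4, and the called change was small (0.19 ± 0.07, adjusted p = 0.0361). It was lost without any 1 of 5 libraries, conventional wild type 1, 2 or 3 and knockout 1 or 2, with adjusted p from 0.0727 to 0.112, with these 2 groups fitted alone (0.0581) and without the 3 libraries rich in muscle transcripts (0.0695). In experiment 1 the change was -0.01 (95% interval -0.12 to 0.09). The gene plod2, which hydroxylates the ends of fibrillar chains, stood at 30.1 to 49.1 CPM in conventional wild type and 32.4 to 42.5 CPM in the knockout and was called nowhere.

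Neither prolyl 4-hydroxylase catalytic subunit was called in experiment 1, and each was called in some comparisons of experiment 2. The gene p4ha2 rose in the conventional knockout, from 9.60, 8.06, 10.3 and 16 CPM to 17.8, 16.8, 16.02 and 17.2 CPM. Conventional wild type 4 came just below the lowest knockout library, 16.01 against 16.02 CPM, and the log2 fold change was 0.62 ± 0.15 (adjusted p = 0.00381). In experiment 1 and in germ-free larvae p4ha2 changed by 0.21 ± 0.09 (adjusted p = 0.12) and 0.25 ± 0.15 (adjusted p = 0.252). The germ-free genotypes did not overlap, at up to 16.22 CPM in wild type and from 16.35 CPM in the knockout. With these 2 groups fitted alone p4ha2 was called (adjusted p = 0.0437). Germ-free rearing in wild type gave 0.41 ± 0.15, short of the threshold (adjusted p = 0.0582). That rise was called by DESeq2 (0.0434) and without conventional wild type 4 (0.000169). The co-housed knockout was higher than conventional wild type by 0.44 ± 0.15 (adjusted p = 0.0365), which was lost without any 1 of 6 of the 8 libraries, the exceptions being co-housed knockout 2 and wild type 4. The scarcer p4ha1b stood at 2.68, 3.6, 4.02 and 2.58 CPM in germ-free wild type and at 2.22, 2.17, 2.08 and 2.34 CPM in the germ-free knockout. All knockout libraries were lower (-0.55 ± 0.18, adjusted p = 0.0332), and the call was lost without germ-free knockout 1, 2 or 3 or wild type 2 or 3, with adjusted p from 0.063 to 0.111, and on log2 TPM (0.132).

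Among the lysyl oxidases, loxl2a fell with germ-free rearing in both genotypes. In mammals its relative LOXL2 also acts on type IV collagen. In wild type it went from 14.4, 12.7, 15.1 and 4.02 CPM in conventional to 1.84, 4.66, 4.66 and 5.29 CPM in germ-free libraries. Conventional wild type 4 lay among the germ-free values and the other 3 far above them (-1.48 ± 0.41, adjusted p = 0.0147). Without the 3 libraries rich in muscle transcripts the adjusted p was 0.0685, and with the 2 groups fitted alone 0.0615. In the knockout it went from 18.9, 18.7, 15.8 and 25.7 CPM to 5.53, 6.71, 6.45 and 7.03 CPM. These groups did not overlap (-1.62 ± 0.40, adjusted p = 0.00674).

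Co-housed libraries held 23.8, 20.4, 14.6 and 6.41 CPM of loxl2a, 3 near the conventional knockout and the fourth among the germ-free values. Against the germ-free knockout the change was 1.34 ± 0.40, just short of the threshold (adjusted p = 0.0508), and without co-housed knockout 4 it was 1.61 and called (adjusted p = 0.00995). The same co-housed library was the highest of its group for serpinh1b. In every knockout comparison loxl2a missed the threshold, with -0.13 ± 0.31 in experiment 1, 0.78 ± 0.39 in conventional and 0.64 ± 0.41 in germ-free larvae, although the genotypes did not overlap in either rearing condition. As a share of lysyl oxidase TPM it averaged 27.4% in conventional and 11.9% in germ-free wild type, and 43.7% and 19.3% in the knockout groups.

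The gene loxl3b was lower in the knockout and went up with germ-free rearing in wild type. In experiment 1 it stood at 19.0, 23.5, 20 and 21.1 CPM in wild type and 15.6, 17.2, 16.1 and 17.1 CPM in the knockout. The groups did not overlap (-0.34 ± 0.08, adjusted p = 0.0104). In germ-free larvae it stood at 22.6, 21.3, 21.3 and 24.7 CPM and at 17.3, 18.8, 15.1 and 17.9 CPM, again without overlap (-0.38 ± 0.10, adjusted p = 0.00755). In conventional larvae wild type held 16.8 to 18 CPM and the knockout 12.2 to 16.9 CPM, a change of -0.24 ± 0.10 that was not called (adjusted p = 0.065). Germ-free wild type exceeded conventional wild type by 0.35 ± 0.10 (adjusted p = 0.015). On log2 TPM neither germ-free call held, with adjusted p of 0.0911 for the knockout and 0.126 for the rearing effect.

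The calls of loxl2b, loxl3a and loxa were lost when single libraries were left out. The gene loxl2b rose in the knockout of experiment 1 (0.63 ± 0.19, adjusted p = 0.0292) and of germ-free larvae (0.61 ± 0.20, adjusted p = 0.0319). The first was lost without knockout 1, 2 or 4 or wild type 2, 3 or 4 (adjusted p up to 0.079) and the second without germ-free knockout 2 or 3 or wild type 1, 2 or 4 (up to 0.153) and without the 3 libraries rich in muscle transcripts (0.0607). The gene loxl3a fell in the conventional knockout, from 3.89, 2.36, 2.68 and 3.11 CPM to 2.52, 1.5, 1.1 and 1.09 CPM. The groups met at wild type 2 and knockout 1 (-0.95 ± 0.35, adjusted p = 0.0373), and the call was lost without knockout 2, 3 or 4 or wild type 1, 3 or 4 (adjusted p from 0.05 to 0.105). The gene loxa was lower in germ-free than in conventional wild type, at 1.98, 2.21, 2.33 and 2.96 CPM against 4.44, 3.55, 3.70 and 2.69 CPM. The groups overlapped at 1 library each (-0.60 ± 0.19, adjusted p = 0.0284), and the call was lost without replicate 1, 2 or 3 of either group (adjusted p from 0.0614 to 0.0965). The gene loxl1 was called nowhere and ranged over 4.29 to 8.11 CPM in experiment 2.

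Germ-free rearing called 6 of the 29 genes in wild type, 2 higher and 4 lower, where 25.2% of all genes were called (12.1% higher and 13.2% lower). In the knockout it called 2, serpinh1b higher and loxl2a lower, where 27.2% of all genes were called (14% higher and 13.3% lower). The member medians were -0.26 and 0.03, and the medians over all genes were 0.00 and 0.01. Smooth muscle markers were lower in germ-free libraries as well, summing to 3146 to 4666 CPM in conventional and 2407 to 3111 CPM in germ-free wild type, and to 3136 to 3793 and 2530 to 3026 CPM in the knockout, without overlap in either genotype. Of 10 tested, 4 fell in wild type and 3 in the knockout, and 0 rose. Of 13 mesenchyme markers tested, 3 rose and 0 fell in wild type, and 3 rose and 1 fell in the knockout (23.1% higher in each). Summed mesenchyme levels overlapped between the rearing conditions in both genotypes. Of 16 intestinal epithelium markers tested, 7 fell in wild type (43.8%) and 9 in the knockout (56.2%), with 1 higher in each. Their sum in the knockout went from 2.96e+04 to 3.04e+04 CPM under conventional rearing down to 2.29e+04 to 2.55e+04 CPM in germ-free larvae. The part of these markers in the rearing results of the collagen and processing genes was not tested. No gene was called in the interaction of genotype and rearing, where edgeR called 0.444% of all genes. There 4 members had an unadjusted p under 0.05 in edgeR, and DESeq2 called 0.

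The labels do not say with which fish the co-housed knockout larvae were kept. Against the conventional knockout edgeR called 0 of 29 genes, with 2 at an unadjusted p under 0.05, and DESeq2 called 1, serpinh1b (adjusted p = 0.044); 2.59% of all genes were called. Against the germ-free knockout edgeR called 0, with 4 at an unadjusted p under 0.05, and DESeq2 called 1, loxl2a (adjusted p = 0.00677); 7.27% of all genes were called. Against conventional wild type 6 of 29 were called, 4 higher (plod1a, p4ha2, serpinh1b and col28a2a) and 2 lower (loxa at -0.51 ± 0.19, adjusted p = 0.0471, and loxl3a at -1.15 ± 0.35, adjusted p = 0.0173), where 33.2% of all genes were called (16.1% higher and 17.1% lower). The call of loxa was lost without co-housed knockout 1, 2 or 4 or wild type 1, 2 or 3 (adjusted p from 0.0735 to 0.146), and that of loxl3a without co-housed knockout 3 (0.0501) or wild type 1 (0.051). That comparison and the knockout comparison in conventional larvae share their 4 wild type libraries. In it 7 of 12 endothelial (58.3%), 6 of 13 mesenchyme (46.2%) and 7 of 16 exocrine pancreas markers tested (43.8%) were higher. Lower were 0, 1 and 1 of these. Intestinal epithelium had 4 higher and 4 lower of 16, smooth muscle 1 and 2 of 10, and liver 0 and 4 of 14. The part of these markers in the calls was not tested. For col18a1a and col4a5 the co-housed values against wild type were 0.19 ± 0.10 (adjusted p = 0.134) and 0.24 ± 0.17 (adjusted p = 0.289).

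Of 14 genes tested that trim, cut or release collagen or inhibit those that do, 2 rose and 3 fell in experiment 1 (14.3% and 21.4%, near the 16.1% and 17% of all genes). In conventional larvae 7 rose and 2 fell (50% and 14.3%, against 17% and 19.1% of all genes), and in germ-free larvae 5 rose and 0 fell (35.7% higher, against 13.5%). The collagenase gene mmp13a rose in all 3, by 1.3 ± 0.27, 1.71 ± 0.51 and 2.11 ± 0.51 in experiment 1, conventional and germ-free larvae, and so did pcolce2b, a procollagen proteinase enhancer, by 2.13 ± 0.46, 1.85 ± 0.24 and 0.76 ± 0.24. The metalloproteinase gene mmp14b rose in conventional (0.58 ± 0.11) and germ-free larvae (0.55 ± 0.11) and fell in experiment 1 (-0.51 ± 0.09). The inhibitor gene timp2a rose in both rearing conditions of experiment 2 (1.44 ± 0.23 and 1.69 ± 0.23), while ctsk, encoding the collagen-cutting cathepsin K, fell in experiment 1 (-0.59 ± 0.13) and in conventional larvae (-0.64 ± 0.19).

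Of 10 other basement membrane genes tested, 2 rose and 1 fell in experiment 1, and 2 rose and 0 fell in conventional and in germ-free larvae; 20% higher is close to the 16.1%, 17% and 13.5% of all genes called higher in the 3 comparisons. The laminin chain gene lama5 was among them each time, with changes of 0.44 ± 0.10, 0.57 ± 0.14 and 0.87 ± 0.14. Of 5 collagen receptor genes tested, 2 rose in experiment 1 (40%), 1 in conventional (20%) and 2 in germ-free larvae (40%), and none fell, against the same shares of all genes; adgrg6, an adhesion receptor that binds type IV collagen, changed by 1.14 ± 0.11, 1.01 ± 0.16 and 1.04 ± 0.17. In the list of TGF-beta and CCN signals, 1 of 12 rose and 3 fell in experiment 1 (8.33% and 25%, against 16.1% and 17% of all genes), and 3 and 2 of 13 rose in conventional and germ-free larvae (23.1% and 15.4%, against 17% and 13.5%); smad3a, a mediator of TGF-beta signals, changed by 0.80 ± 0.23, 1.63 ± 0.14 and 1.55 ± 0.14.

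Over all genes tested, 17%, 19.1% and 13.3% were called lower in experiment 1, conventional and germ-free larvae. Of other interstitial matrix genes, 3 of 19 were lower and 1 higher in experiment 1 (15.8% lower), 6 of 21 lower and 3 higher in conventional larvae (28.6% lower), and 3 lower and 2 higher in germ-free larvae (14.3% lower), so that the share in experiment 1 and in germ-free larvae was near that of all genes. The fibulin gene fbln1 changed by -1.40 ± 0.27, -1.46 ± 0.25 and -1.17 ± 0.25. In the procollagen secretion machinery, 3 of 13 fell and 1 rose in experiment 1 (23.1% lower), and 5 fell and 1 rose in each rearing condition of experiment 2 (38.5% lower). The coat protein gene sec31a changed by -0.55 ± 0.07, -0.58 ± 0.11 and -0.39 ± 0.11. Among 10 folding and maturation partners, 3 rose and 1 fell in experiment 1 (30% and 10%), 0 were called in conventional larvae, and 2 rose and 1 fell in germ-free larvae (20% and 10%), where 16.1% and 13.5% of all genes were called higher; crtap, of the prolyl 3-hydroxylation complex, changed by 0.50 ± 0.14 in experiment 1 and 0.67 ± 0.18 in germ-free larvae.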

How the data were processed

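Polyadenylated RNA from pools of guts was sequenced as paired reads of 100 bases from TruSeq stranded libraries, per the labels' protocols. The build danRer11 and FastQC 0.11.8 are named there. Aligner, read counter, strand option and annotation: not given in the sources used here. For each experiment the authors deposited raw read counts per gene, and a TPM table normalized by the authors for length and library total. Rows of experiment 1 carried transcript identifiers, of which 15776 were given a symbol through a RefSeq table of GRCz12tu, used for names only. TPM values were missing for 1886 rows of experiment 1. No libraries held identical values (0 pairs in each experiment). Each library is a separate pool, so p-values measure the spread between pools.

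Counts of all genes were tested by a robust quasi-likelihood F test (edgeR 4.0.16, R 4.3.3), after TMM scaling and a filterByExpr step that used the groups, with Benjamini-Hochberg adjustment at 0.05. The 8 libraries of experiment 1 were fitted alone and the 20 of experiment 2 together. The 2 knockout effects were compared on 16 libraries joined by symbol, with library sizes kept within each table, and no level was tested between tables. CPM values are TMM-scaled; log2 fold changes name the first group as numerator, and their SE comes from the size of the change over the root of F. Intervals are approximate and rest on that SE. Alternatives were DESeq2 1.42.0, limma 3.58.1 on log2 TPM, other count filters, the compared groups alone, the replicate number as a block, each library left out, and the 3 libraries rich in muscle transcripts left out. The fits were tested on simulated counts.

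The members and lists were chosen with earlier results of these data known. Values in every library are given for a set list of members and for the called members of smallest p, up to 3 in each direction of a comparison, and genes of a list are named where its count is given. Values of col2a1b, plod3, loxl2b, col11a2 and col17a1a were added after they were seen. Paralogs such as col1a1a and col1a1b or serpinh1a and serpinh1b are uncertain where reads could be split between them.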

Additional observations from a re-analysis of the deposited data

Results flagged for a closer look

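A group of 4 libraries was marked where its highest or lowest library lay far from the rest, and chance marks about 1 in 20 groups. Over 20 genes and 133 group values, 8 were marked. For col17a1a these were wild type 1 of experiment 1 at 1.47 CPM against 0.387 to 0.496 CPM in the others, germ-free wild type 2 at 6.87 CPM against 0.83 to 1.43 CPM, and germ-free knockout 3 at 9.66 CPM against 0.272 to 1.55 CPM. For col8a2 they were knockout 4 of experiment 1 at 4.78 CPM against 0.463 to 1.18 CPM, and co-housed knockout 2 at 5.37 CPM against 0.714 to 1.15 CPM. The libraries co-housed knockout 2 and germ-free wild type 2 are among the 3 libraries rich in muscle transcripts.

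The library germ-free wild type 3 held 78 CPM of col18a1a, where the other 3 held 67.2 to 67.6 CPM. Co-housed knockout 1 held 2.0 CPM of col28a2a, where the others held 0.814 to 0.896 CPM. Germ-free knockout 3 was low for serpinh1b, at 15.4 CPM against 17.2 to 17.5 CPM. The knockout effect on col18a1a differed between the experiments by 0.53 on the log2 scale, in a test of the difference itself. That call was lost in 15 of 24 alternatives.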

How the results depend on the processing

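Of 561 values of called members recomputed under the alternatives, 445 kept direction and call, 116 kept direction only and 0 changed direction, and 15 of 35 results kept their call throughout. These were plod1a in its 4 calls, col18a1a in experiment 1, in the germ-free knockout and in germ-free wild type, col4a5 in experiment 1 and the germ-free knockout, serpinh1b and loxl2a between the knockout rearing groups, col2a1b, col28a2a and loxl3b in experiment 1, and p4ha2 in the conventional knockout. With the compared groups fitted alone, the members called were 3 for the conventional knockout, 2 for germ-free rearing in wild type, 6 for it in the knockout and 2 for the co-housed knockout against wild type. With DESeq2 they were 10 for germ-free rearing in wild type, 1 each for co-housing against conventional and against germ-free knockout, and 3 for the difference between experiments. Without the 3 libraries rich in muscle transcripts they were 3 for germ-free rearing in wild type, 4 for it in the knockout, 1 for co-housing against conventional and 0 for the difference between experiments. That difference also gave 0 on log2 TPM and without a count filter, and a filter of 1 CPM gave 1 for co-housing against germ-free. The cause of these changes was not tested. Fits with groups or libraries left out also rest on fewer libraries.

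With the replicate number as a block, 4 members were called in the conventional knockout and 0 in the difference between experiments. Whether the numbers mark pairs was not settled. Same-numbered libraries deviated together, at a correlation over 0.1, in 1 of 4 pairs of experiment 1 and 9 of 40 of experiment 2. Mean correlations of same-numbered and other pairs were 0.075 and -0.025 in experiment 1, and -0.029 and 0.012 in experiment 2. In experiment 1, 2 of 8 libraries correlated best with their own number, and in experiment 2, 5 of 20. With 4 same-numbered pairs, experiment 1 cannot decide this. Leaving out each library gave 6 to 8 members called for the knockout in experiment 1, 3 to 6 in conventional and 4 to 7 in germ-free larvae. It gave 4 to 12 for germ-free rearing in wild type and 2 to 2 in the knockout. For co-housing it gave 0 to 0 against conventional knockout, 0 to 1 against germ-free knockout and 3 to 6 against wild type. It gave 0 to 2 for the interaction and 0 to 3 for the difference between experiments. The count in the conventional knockout fell to 3 without knockout 4 and to 4 without knockout 2 or wild type 4. For germ-free rearing in wild type it was 12 without conventional wild type 4, and without that library the interaction called plod3 and p4ha2. Against wild type the co-housed count fell to 3 without co-housed knockout 1 or 4 or wild type 3. Levels under about 1 CPM rest on few counts per library and limit what could be seen of col28a2a, col5a3b and col27a1b.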
